A study of Mus musculus with 19 samples.

Results

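Proteins bound for the cell surface, for secretion or for the endosomes fold in the endoplasmic reticulum (ER), and 33 genes that serve that folding and its stress response, the unfolded protein response (UPR), are described here in sorted type 1 conventional dendritic cells (DC1). The members were set as a list of gene symbols: 11 chaperones and cochaperones, 5 disulfide isomerases, 6 UPR sensors and transcription factors, 7 genes of ER-associated degradation (ERAD) and 4 genes of the translocon. In both deposited array tables, 32 of the 33 members had a probe set annotated to that gene alone, of 22180 genes named on the spleen table and 19938 on the lymph node table. Pdia4 could not be read in spleen and Sec61g could not be read in lymph node, because their probe sets there were shared with other symbols. All 32 members of each table passed the filter on dim genes, which kept 12875 spleen genes and 11931 lymph node genes.

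Chaperones such as BiP hold unfolded chains, disulfide isomerases pair their cysteines, and ERAD returns failed proteins to the cytosol for destruction. When unfolded chains build up, the membrane sensors IRE1, ATF6 and PERK signal to the nucleus: IRE1 splices Xbp1 mRNA, cleaved ATF6 enters the nucleus, and PERK slows translation so that ATF4 and CHOP are made. DC1 take up dying cells and prime CD8 T cells, and are known for IRE1 activity in the absence of overt stress. An array reads the amount of mRNA, not the activity of a sensor, and does not tell spliced from unspliced Xbp1 mRNA here.

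The cells came from mice on the C57Bl/6j background that were wild type (WT) or lacked Batf3, the gene of a transcription factor needed for DC1 development, and the DC1 were read with (Irf8VENUS+) or without (Irf8VENUS-) the Irf8 reporter Irf8VENUS, a fluorescent protein. Of 8 spleen arrays, all from female mice, 2 were WT without the reporter, 3 were WT with it and 3 were Batf3-/- with it. The table of skin-draining lymph nodes (SDLN) held only Irf8VENUS+ DC1: 3 arrays of resident WT, 2 of migratory WT, 3 of resident Batf3-/- and 3 of migratory Batf3-/- cells. Resident DC1, with intermediate MHC class II and high CD11c, stay in the node. Migratory DC1, with high MHC class II and intermediate CD11c, come from the skin. The labels give no ages and name no mouse for any array. The p-values set a difference against the spread of arrays within groups, estimated over all arrays of a table. That spread may be technical in part. The spleen gate was CD24 plus XCR1, except for replicate 3 of either Irf8VENUS+ group, which had CD24 only. In bulk arrays, fewer cells of a type and less RNA per cell cannot be told apart.

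The labels were checked first, on the log2 intensity scale used throughout. Batf3 lay between 5.29 and 7.08 on the spleen Batf3-/- arrays against 9.42 to 10.41 on the WT ones, and between 5.50 and 6.17 on the SDLN Batf3-/- arrays against 8.15 to 9.23. Xcr1, a receptor that marks DC1, lay between 8.99 and 11.43 in spleen. Ccr7, which guides dendritic cells along lymph vessels, and Fscn1, an actin bundler of mature dendritic cells, rose from resident to migratory WT DC1 by log2 fold changes of 3.34 ± 0.35 (standard error, SE) and 4.19 ± 0.62, while Xcr1 and the receptor gene Clec9a changed by -3.20 ± 0.24 and -3.07 ± 0.20. The spleen sort lists CD172a+ and the lymph node sort CD172-, but Sirpa, the gene of CD172a, lay between 5.35 and 5.84 in spleen; on 1 resident WT lymph node array, replicate 1, it read 7.82 against 5.31 to 5.67 on the other 2.

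Pdia5, a less studied member of the protein disulfide isomerase family, was the member that was low without Batf3. In spleen it read 8.47 and 8.51 on the WT Irf8VENUS- arrays, 8.26, 8.65 and 8.65 on the WT Irf8VENUS+ arrays, and 6.54, 6.57 and 6.56 on the Batf3-/- arrays. Every WT array lay above every Batf3-/- array, and the reporter groups overlapped. The log2 fold change without Batf3 was -1.97 ± 0.16, a 3.91-fold lower level, with a limma adjusted p of 0.00347. Among arrays of the gate with XCR1 the difference was -1.91, and between the 2 arrays of the CD24 gate it was -2.09. The reporter itself went with a difference of -0.00 ± 0.19 (limma adjusted p = 0.998).

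In the lymph node, Pdia5 read 7.96, 8.41 and 8.37 in resident WT DC1 and 6.91, 6.87 and 6.72 in resident Batf3-/- DC1. The groups did not overlap, with a log2 fold change of -1.41 ± 0.18 and a limma adjusted p of 0.000934. Markers of mature or migratory dendritic cells were also higher in these cells: 3 of 11 were called higher and 10 were positive, among them Ccr7 at 1.62 ± 0.31 (limma adjusted p = 0.0183), with summed levels of 12.47 to 12.95 against 11.96 to 12.30 in WT, while Xcr1 was at -1.38 ± 0.21 (limma adjusted p = 0.00409). In spleen all 11 were positive and 1 was called, Fscn1 at 1.41 ± 0.19 (limma adjusted p = 0.0191), with Ccr7 at 2.06 ± 0.39 (limma adjusted p = 0.07) and summed levels of 12.34 to 12.58 against 11.03 to 12.08 in WT with the reporter. WT spleen DC1 without the reporter had summed levels of 12.31 to 12.32, close to those of the Batf3-/- arrays. Between the WT groups 9 of the 11 were lower with the reporter and 0 were called, with Ccr7 at -1.17 ± 0.46. Of the DC1 markers tested, 4 of 9 in spleen and 4 of 10 in resident cells were lower, Batf3 among them. Of markers of type 2 conventional dendritic cells 1 of 7 and 2 of 8 were higher and 0 lower. Their summed levels were 10.10 to 10.32 against 9.33 to 9.67 in spleen WT with the reporter. In resident cells they were 10.68 to 11.11 against 10.22 to 11.03. Over all genes 0.435% and 0.847% were higher, 0.303% and 0.997% lower. The part of these markers in the Pdia5 differences was not tested. Migratory WT DC1 read 6.25 and 6.19, below both resident groups, and migratory Batf3-/- DC1 read 5.39, 5.98 and 5.83, the lowest of the 4 groups. From resident to migratory cells Pdia5 thus fell by 2.03 ± 0.20 in WT and by 1.10 ± 0.18 without Batf3 (limma adjusted p = 1.05e-05 and 0.000442). Between the migratory groups the arrays did not overlap, but the difference of -0.48 ± 0.20 did not pass the test (limma adjusted p = 0.134), and neither did the difference between the Batf3 effects in migratory and resident cells, 0.93 ± 0.27 (limma adjusted p = 0.104). In descending order the SDLN means were 8.25 ± 0.25 (SD, n = 3) for resident WT, 6.83 ± 0.10 (n = 3) for resident Batf3-/-, 6.22 ± 0.04 (n = 2) for migratory WT and 5.73 ± 0.31 (n = 3) for migratory Batf3-/- DC1.

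**Figure D1:**
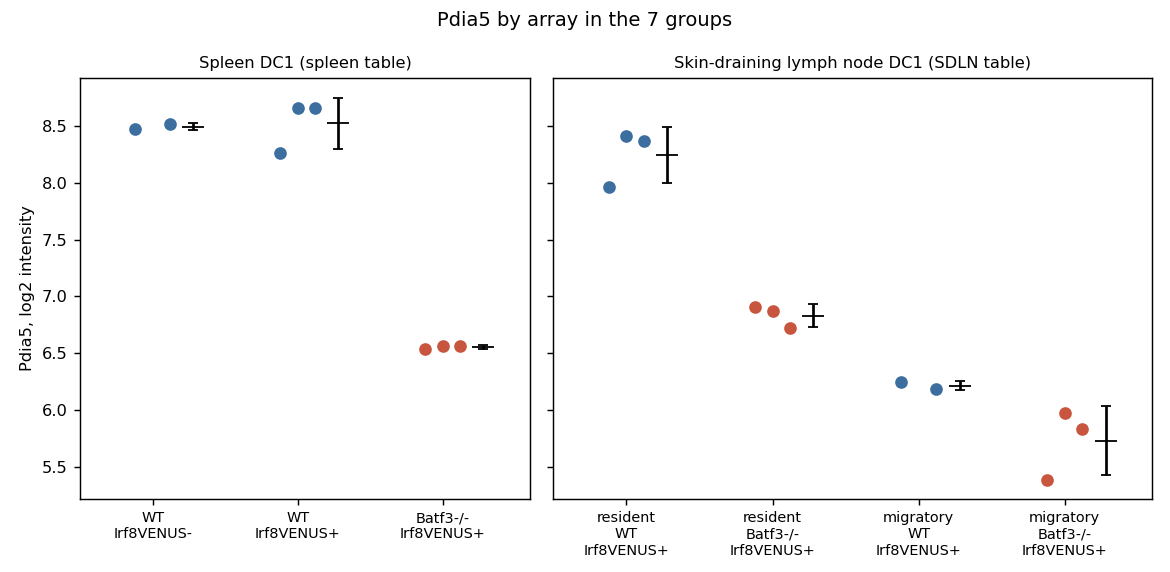
Pdia5 on each array, as log2 intensity (y axis), by group (x axis), in the spleen table on the left and the lymph node (SDLN) table on the right. Points are arrays, blue for WT and red for Batf3-/-, the horizontal mark is the group mean and the bar 1 SD. Batf3-/- spleen arrays lay between 6.54 and 6.57 and the WT ones at 8.26 or above, and in the lymph node the 4 groups formed separate steps; levels are not comparable between the 2 tables.

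The rest of the folding genes did not pass the test in spleen DC1 without Batf3. Pdia5 was 1 of 32 members called, lower, where 0.738% of all 12875 genes were called and 0.303% were called lower, 0.435% higher. The median log2 fold change of the 32 members was -0.03, against -0.02 over all genes. Hspa5, the gene of BiP, the main Hsp70 chaperone of the ER, read 9.69, 10.08 and 9.78 in WT Irf8VENUS+ and 10.20, 10.31 and 9.26 in Batf3-/- DC1, with a difference of 0.07 ± 0.21. The Batf3-/- array sorted on CD24 alone was the low one. Ern1, the gene of the sensor IRE1, read 7.57, 7.77 and 7.80 against 7.66, 7.66 and 7.67, and its target Xbp1, a transcription factor gene, read 7.18, 7.36 and 7.22 against 7.67, 7.22 and 7.22. Both differences lay within the spread between arrays, at -0.05 ± 0.17 and 0.11 ± 0.18.

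The PERK arm read likewise in spleen. Atf4, the factor translated when PERK slows protein synthesis, read 9.98, 9.96 and 9.98 in WT Irf8VENUS+ and 10.44, 10.17 and 9.63 in Batf3-/- DC1, a difference of 0.10 ± 0.18. Ddit3, the gene of the stress factor CHOP, read 6.66, 6.37 and 7.01 against 6.24, 6.38 and 7.27, a difference of -0.05 ± 0.20. For both genes the groups overlapped. Among the other isomerases, Pdia6 differed by 0.13 ± 0.30, P4hb by -0.07 ± 0.15 and Pdia3 by -0.24 ± 0.11, none past the test.

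The reporter changed none of the 32 members in WT spleen DC1 by limma's adjusted test, where 0.0233% of all genes were called, 0.0155% higher and 0.00777% lower. At an unadjusted p under 0.05 there were 3: Creld2, an ER stress-inducible protein of the ER lumen, at 0.72 ± 0.21, Derl2, a derlin of the dislocation machinery, at 0.41 ± 0.15, and Herpud1, an ERAD scaffold, at -0.69 ± 0.24 in Irf8VENUS+ minus Irf8VENUS- cells. Over all genes 1018 of 12875 had an unadjusted p under 0.05, a share near that of the members. Hspa5 read 10.43 and 10.29 in Irf8VENUS- DC1 and Herpud1 9.56 and 9.49, in each case above all 3 WT Irf8VENUS+ arrays. Xbp1 read 7.17 and 6.94, Ern1 7.88 and 7.47, Atf4 9.93 and 10.29 and Ddit3 6.36 and 5.76 in those Irf8VENUS- arrays, with differences to the reporter-positive cells between -0.03 for Atf4 and 0.38 for Ddit3.

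Resident lymph node DC1 gave the same single call. Pdia5 alone of 32 members was called in resident DC1 without Batf3, where 1.84% of all 11931 genes were called and 0.997% were called lower, 0.847% higher. Of the 32 members, 27 had a negative difference, with a median of -0.20 against -0.01 over all genes, of which 6248 of 11931 were negative. Hspa5 read 10.40, 10.44 and 10.35 in resident WT and 10.31, 10.28 and 9.89 in resident Batf3-/- DC1, and Xbp1 read 8.85, 8.92 and 8.71 against 8.48, 8.64 and 8.54. All 3 Batf3-/- arrays lay below the WT ones for both genes, yet neither difference passed the test, at -0.24 ± 0.26 and -0.27 ± 0.14. Eif2ak3, the gene of PERK, was the largest positive difference at 0.49 ± 0.21 (limma adjusted p = 0.443). Resident Batf3-/- replicate 3 was the lowest resident array over the members, with a median of 0.22 above each gene's mean over the 11 arrays, against 0.40 to 0.58 on the other 5.

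**Figure D2:**
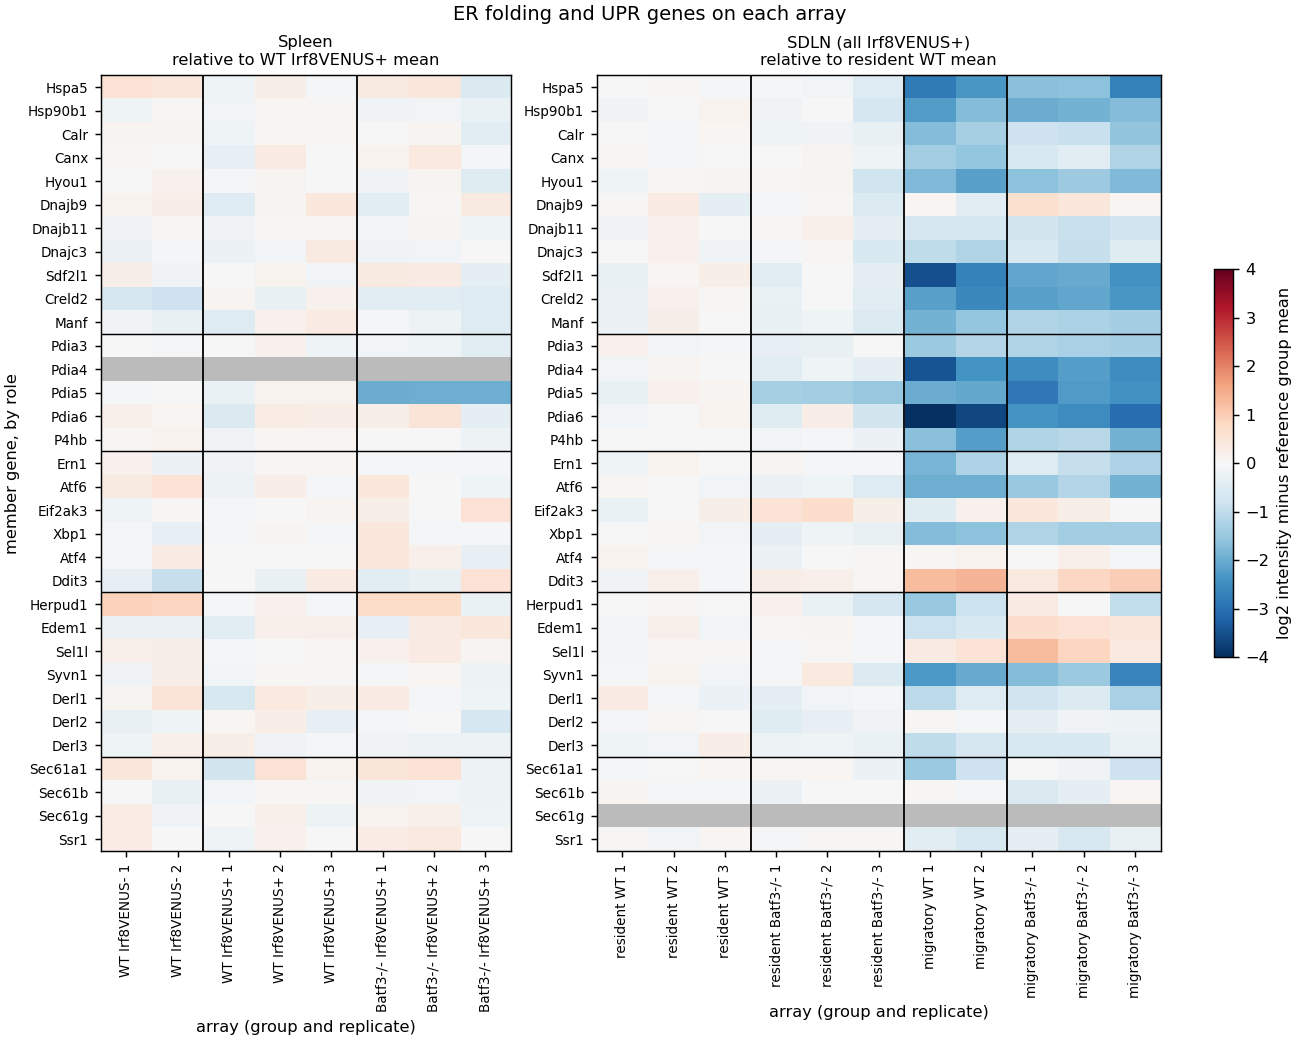
Each member gene (rows, ordered by role: chaperones and cochaperones, disulfide isomerases, sensors and transcription factors, ERAD, translocon) on each array (columns), coloured by its log2 intensity minus the mean of WT Irf8VENUS+ spleen arrays (left) or of resident WT lymph node arrays (right). Grey marks Pdia4 and Sec61g where they could not be read. In spleen the Pdia5 row stands out on the 3 Batf3-/- arrays, and in the lymph node most rows are blue on all 5 migratory arrays, with Ddit3 and Sel1l above 0 on all 5.

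Migratory DC1 held less mRNA of most folding genes than resident DC1. In WT cells 25 of 32 members were lower and 1, Ddit3, was higher. The WT count rested on how the spread of each array was treated: with the SD of an array's log2 values as a term in the fit, 9 members were lower and 1, Sel1l, was higher, with a median over the members of -0.83. Over all genes tested 33.2% were called lower and 16% higher, 49.2% in all. The members' median log2 fold change was -1.41, against -0.16 over all genes. Without Batf3, 20 members were lower and 3, Ddit3, Edem1 and Sel1l, were higher, where 22.6% of all genes were called lower, 14.1% higher and 36.6% in all. There the members' median was -0.82, against -0.02. Bright genes fell more often than dim ones: of the 6656 genes with at least 2 arrays at or above the 75th percentile of the table, 47.2% were lower in WT and 31.8% without Batf3, and 24 of the 31 members in that set were lower in WT. Arrays of 1 replicate number share a code in their lymph node titles, and within each code that held both groups the sign of the pooled difference recurred for all 26 members called in WT and 2 of the 6 not called, and for all 23 called in Batf3-/- cells and 4 of the 9 not called. The called members were chosen on these same arrays, so their signs are no separate evidence.

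Of the 11 chaperones, 10 were called lower in WT and 9 in Batf3-/- cells. With the array SD as a term 3 of the 11 were lower in WT, Hsp90b1, Sdf2l1 and Creld2, and 9 without Batf3. Hspa5 read 10.40, 10.44 and 10.35 in resident WT against 7.58 and 8.07 in migratory WT arrays, and 10.31, 10.28 and 9.89 in resident Batf3-/- against 8.73, 8.76 and 7.70 in migratory Batf3-/- arrays. Every migratory array was more than 1 log2 unit below every resident one, with log2 fold changes of -2.57 ± 0.29 in WT and -1.77 ± 0.26 without Batf3 (limma adjusted p = 2.33e-05 and 0.000166), the WT change being -0.86 and not called with the array SD as a term. Hsp90b1, the Hsp90 of the ER, which folds Toll-like receptors and integrins, read 10.84, 11.00 and 11.13 in resident WT and 8.75 and 9.26 in migratory WT DC1. In Batf3-/- DC1 it read 10.84, 10.98 and 10.32 in resident and 9.02, 9.10 and 9.25 in migratory arrays. Its fall was 1.99 ± 0.21 in WT and 1.59 ± 0.19 in Batf3-/- cells, with no overlap in either genotype.

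Hyou1, a large Hsp70-related protein that exchanges the nucleotide on BiP, read 7.46, 7.72 and 7.74 in resident and 5.86 and 5.47 in migratory WT arrays. Without Batf3 it read 7.69, 7.75 and 6.83 against 5.99, 6.18 and 5.87. The log2 fold changes were -1.97 ± 0.26 and -1.41 ± 0.23, and the groups were separate although resident Batf3-/- replicate 3 was low; with the array SD as a term the WT change was -1.24, not called. Sdf2l1, a partner of BiP and its J-domain cochaperones, had the largest fall among the chaperones in WT DC1: 9.23, 9.61 and 9.76 in resident WT against 6.03 and 6.82 in migratory WT arrays, and 9.11, 9.52 and 9.13 against 7.45, 7.52 and 7.12 without Batf3. That is a log2 fold change of -3.11 ± 0.26 in WT, an 8.64-fold lower level, and of -1.88 ± 0.23 without Batf3, where Creld2 was at -1.96.

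Creld2 read 9.24, 9.67 and 9.54 in resident and 7.33 and 6.89 in migratory WT arrays, and 9.23, 9.46 and 9.04 against 7.31, 7.40 and 7.16 without Batf3. Manf, a BiP-binding protein of the lumen that stressed cells can release, read 8.27, 8.72 and 8.50 against 6.62 and 6.95 in WT and 8.20, 8.32 and 7.94 against 7.30, 7.23 and 7.12 without Batf3. For both genes each migratory array was below each resident one, with falls of 2.37 ± 0.20 and 1.71 ± 0.20 in WT and of 1.96 ± 0.18 and 0.94 ± 0.17 without Batf3. Calr and Canx, the lectin chaperones that hold freshly glycosylated chains, changed by -1.54 ± 0.22 and -1.47 ± 0.21 in WT and by -0.90 ± 0.20 and -0.74 ± 0.19 without Batf3. With the array SD as a term Manf, Calr and Canx were not called in WT, at -1.04, -0.48 and -0.70.

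The J-domain cochaperones of BiP did not move alike. Dnajb11 fell by 0.68 ± 0.18 in WT and by 0.74 ± 0.16 without Batf3. Dnajc3 fell by 1.12 ± 0.22 in WT, but its -0.48 ± 0.20 without Batf3 did not pass the test (limma adjusted p = 0.0787). With the array SD as a term neither Dnajb11 at -0.27 nor Dnajc3 at -0.96 was called in WT. Dnajb9, a J-domain protein that IRE1 and XBP1 are known to induce, was not called in either genotype, at -0.18 ± 0.26 in WT and 0.59 ± 0.24 without Batf3. In the latter comparison it passed in 5 of 15 alternatives. Among them were the replicate number as a block and the array SD as a term (limma adjusted p = 0.0168 and 0.0209). The others were quantile normalization, array weights and the fit without migratory Batf3-/- replicate 3.

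All 5 disulfide isomerases were lower in migratory DC1 of both genotypes, and with the array SD as a term 4 were in WT (P4hb, at -1.26, was not) and all 5 without Batf3. Pdia6, an isomerase that works in complex with BiP, fell most of all 32 members: it read 9.06, 9.17 and 9.31 in resident WT and 5.06 and 5.54 in migratory WT arrays. Without Batf3 it read 8.69, 9.44 and 8.46 in resident and 6.79, 6.67 and 6.13 in migratory DC1. The log2 fold changes were -3.88 ± 0.29 in WT, 14.7-fold, and -2.33 ± 0.26 without Batf3 (limma adjusted p = 1.28e-06 and 2.06e-05).

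Pdia4, an isomerase with an additional active domain, read 8.60, 8.84 and 8.70 against 5.26 and 6.31 in WT and 8.25, 8.54 and 8.34 against 6.23, 6.52 and 6.22 without Batf3. Its log2 fold changes were -2.93 ± 0.26 and -2.05 ± 0.23, but its 2 probe sets differed in size: their mean gave -1.16 in WT and -1.23 without Batf3, still called. P4hb, the archetypal disulfide isomerase and a subunit of collagen prolyl hydroxylase, read 8.86, 8.85 and 8.88 against 7.19 and 6.67 in WT and 8.75, 8.82 and 8.62 against 7.66, 7.75 and 6.96 without Batf3. Pdia3, the isomerase of glycoproteins that also sits in the MHC class I peptide-loading complex, read 10.68, 10.40 and 10.46 against 9.02 and 9.33 in WT and 10.19, 10.22 and 10.49 against 9.30, 9.23 and 9.14 without Batf3. No resident array of either gene was as low as a migratory one, and the falls were 1.93 ± 0.24 and 1.34 ± 0.16 in WT and 1.27 ± 0.21 and 1.08 ± 0.14 without Batf3.

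The sensors split. Ern1 read 7.03, 7.35 and 7.23 in resident and 5.34 and 5.97 in migratory WT arrays, and 7.33, 7.13 and 7.17 against 6.69, 6.27 and 5.97 without Batf3. Atf6, the sensor that is itself a transcription factor, read 9.27, 9.22 and 9.08 against 7.25 and 7.25 in WT and 8.96, 9.01 and 8.68 against 7.66, 8.00 and 7.31 without Batf3. Both were lower on every migratory array, by 1.55 ± 0.23 and 1.94 ± 0.21 in WT and by 0.90 ± 0.21 and 1.23 ± 0.19 in Batf3-/- cells. With the array SD as a term the WT change of Ern1 was -0.55 and not called. Eif2ak3, the PERK gene, was not called, at -0.17 ± 0.23 and -0.29 ± 0.21.

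The transcription factors downstream of the sensors split as well: Xbp1 fell, Atf4 was not called and Ddit3 rose. Xbp1 read 8.85, 8.92 and 8.71 in resident and 7.10 and 7.17 in migratory WT DC1, and 8.48, 8.64 and 8.54 against 7.61, 7.44 and 7.44 without Batf3. It was lower on all 5 migratory arrays, with log2 fold changes of -1.69 ± 0.16 and -1.06 ± 0.14 (limma adjusted p = 7.02e-06 and 8.99e-05). Atf4 read 9.43, 9.20 and 9.20 against 9.32 and 9.40 in WT and 9.04, 9.26 and 9.33 against 9.27, 9.48 and 9.20 without Batf3. Its groups overlapped, and the differences of 0.08 ± 0.16 and 0.10 ± 0.14 had 95% intervals from -0.27 to 0.43 and from -0.21 to 0.42.

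Ddit3 went the other way from the chaperones. It read 7.14, 7.49 and 7.21 in resident WT and 8.55 and 8.63 in migratory WT DC1, and 7.56, 7.48 and 7.32 against 7.68, 8.09 and 8.27 without Batf3. Each migratory array was above each resident array of its genotype. The rise was 1.31 ± 0.20 in WT (limma adjusted p = 0.00025) and 0.56 ± 0.18 without Batf3 (limma adjusted p = 0.0275). With the array SD as a term neither rise was called, at 1.10 and 0.49 (limma adjusted p = 0.0927 and 0.0693). The call without Batf3 was also lost in a fit of the compared groups alone. It was lost again when resident replicate 2 or 3 or migratory replicate 2 or 3 was left out.

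ERAD genes fell, rose or stayed near their resident level. Syvn1, the ubiquitin ligase HRD1, read 8.52, 8.69 and 8.45 against 6.25 and 6.53 in WT and 8.50, 8.94 and 8.01 against 6.82, 7.06 and 5.90 without Batf3. Its log2 fold changes were -2.16 ± 0.33 and -1.89 ± 0.29, but with the array SD as a term the WT value was -0.27 (limma adjusted p = 0.682), and -1.30 remained called without Batf3. No ERAD member was called lower in WT with that term. Sel1l, the membrane adaptor of that ligase, read 6.03, 6.19 and 6.18 against 6.46 and 6.67 in WT and 6.07, 6.19 and 6.07 against 7.41, 6.98 and 6.54 without Batf3. Without Batf3 these subunits of 1 complex thus moved in opposite directions: Sel1l was higher, at 0.87 ± 0.19 (limma adjusted p = 0.00344), while in WT it did not pass the test, at 0.43 ± 0.21.

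Edem1, a lectin-like mannosidase protein that hands misfolded glycoproteins to ERAD, was the member whose direction depended on genotype. It read 8.72, 9.05 and 8.73 in resident WT and 7.96 and 8.24 in migratory WT DC1, all lower. In Batf3-/- DC1 it read 8.89, 8.96 and 8.80 in resident and 9.53, 9.43 and 9.28 in migratory arrays, all higher. The log2 fold changes were -0.73 ± 0.17 and 0.53 ± 0.15 (limma adjusted p = 0.00395 and 0.016), and the WT one was -0.20 and not called with the array SD as a term. Herpud1 fell by 1.19 ± 0.33 in WT and differed by 0.02 ± 0.30 without Batf3. Of the derlins, Derl1 fell by 0.78 ± 0.26 and 0.68 ± 0.23, Derl3 fell by 0.83 ± 0.17 in WT and did not pass without Batf3 at -0.30 ± 0.16, and Derl2 was not called, at -0.02 ± 0.16 and 0.10 ± 0.14. The Derl1 calls had limma adjusted p-values of 0.0242 and 0.0359 and were lost in WT without resident replicate 1 or migratory replicate 1, and in Batf3-/- cells without resident replicate 2 or 3 or migratory replicate 1 or 3. The Derl1 call in Batf3-/- cells was also lost with the array SD as a term and in a fit of the compared groups alone. Leaving out migratory WT replicate 1 also ended the Herpud1 call, and leaving out migratory Batf3-/- replicate 1 ended the Edem1 call in Batf3-/- cells.

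Of the 3 translocon members read, 2 were lower in WT (0 with the array SD as a term) and 1 without Batf3. Sec61a1, the pore of the channel that threads new chains into the ER, fell by 1.15 ± 0.25 in WT and differed by -0.29 ± 0.22 without Batf3, not past the test. Sec61b, a small subunit of the channel, differed by -0.01 ± 0.17 and -0.22 ± 0.15. Ssr1, a subunit of the translocon-associated TRAP complex, fell by 0.54 ± 0.16 in WT and by 0.45 ± 0.15 without Batf3. The Ssr1 calls were lost in WT without resident replicate 3 or migratory replicate 2, and in Batf3-/- cells without any 1 resident array or migratory replicate 2. The Ssr1 call in Batf3-/- cells was also lost in a fit of the compared groups alone. Sec61g, the other small subunit, was read only in spleen, between 10.29 and 10.77 over the 8 arrays.

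**Figure D3:**
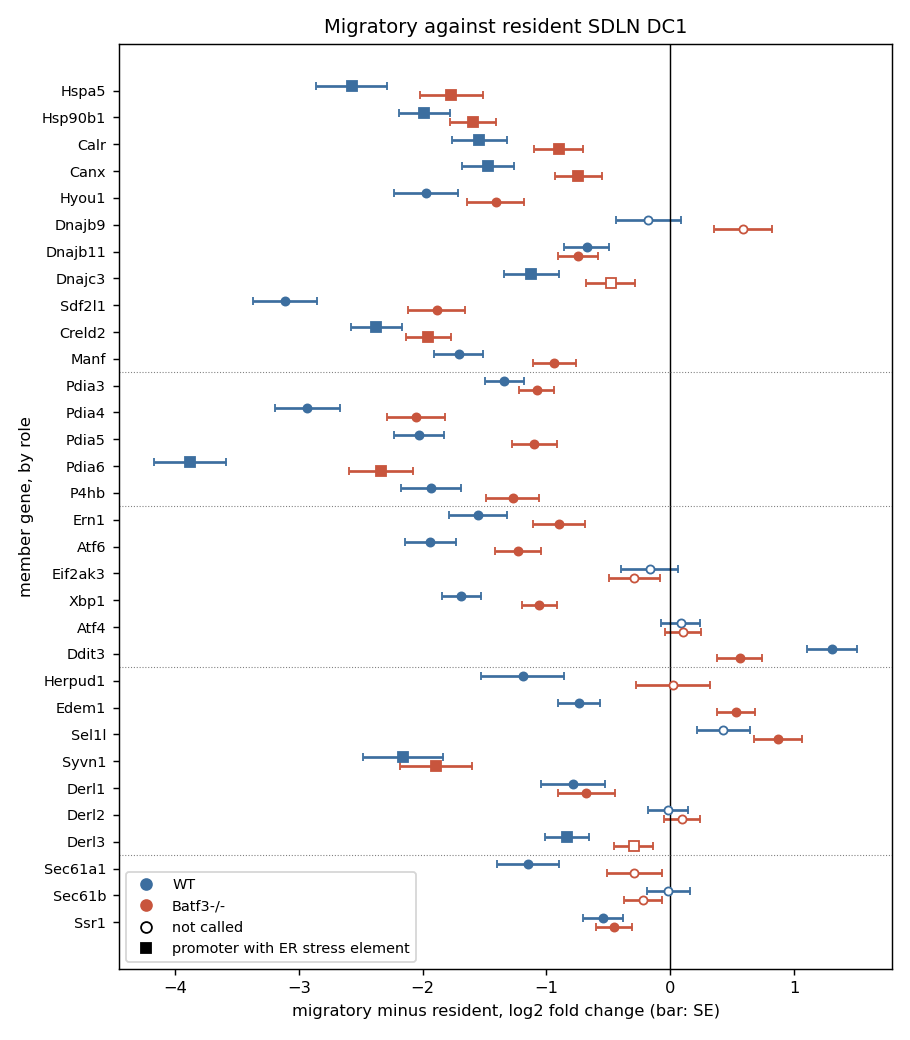
Log2 fold change of each member, migratory minus resident (x axis), in WT (blue) and Batf3-/- (red) lymph node DC1, with bars of 1 SE; genes (y axis) are ordered by role. Filled marks passed the test at an adjusted p under 0.05, open marks did not, and squares are genes whose promoter holds the ER stress element. Of the 32 points, 29 in WT and 25 in Batf3-/- cells lie left of 0, from -3.88 for Pdia6 in WT; Ddit3, Sel1l and Atf4 lie to the right in both genotypes.

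The promoters of these genes were read for the ER stress element, the site that ATF6 with NF-Y, and XBP1, are known to use. The letters searched were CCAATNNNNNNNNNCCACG on both strands, in RefSeq promoters of mouse build GRCm38.p6 that span 250 bases before to 50 bases after the start. The table held a promoter for 28 of the 33 members, all but Hyou1, Manf, Atf6, Derl1 and Sec61a1. The element stood in 9 of the 28, against 0.119% of 32851 promoters, 0.137% of genes, and 1 of the 123 other pathway genes matched. They are shown because these 9 were all among the members lower in migratory WT DC1; capitals mark the element and lower case the 5 bases to each side, written 5′ to 3′ on the strand named.
Hspa5, chr2:34772020-34772048, plus strand: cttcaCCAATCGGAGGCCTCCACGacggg
Pdia6, chr12:17266486-17266514, plus strand: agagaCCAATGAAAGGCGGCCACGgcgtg
Creld2, chr15:88819515-88819543, minus strand: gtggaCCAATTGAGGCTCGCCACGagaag
Syvn1, chr19:6046527-6046555, plus strand: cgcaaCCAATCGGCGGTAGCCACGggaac
Hsp90b1, near copy, chr10:86705528-86705556, plus strand: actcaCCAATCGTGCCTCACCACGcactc
Hsp90b1, far copy, chr10:86705633-86705661, minus strand: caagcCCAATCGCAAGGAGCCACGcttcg
Calr, chr8:84847070-84847098, plus strand: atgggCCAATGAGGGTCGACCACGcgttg
Canx, chr11:50325795-50325823, minus strand: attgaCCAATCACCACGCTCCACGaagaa
Dnajc3, chr14:118937822-118937850, plus strand: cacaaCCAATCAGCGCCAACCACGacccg
Derl3, chr10:75893237-75893265, minus strand: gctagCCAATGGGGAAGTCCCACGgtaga

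The copy nearest to its start was that of Syvn1, 44 to 26 bases upstream, and the farthest was the second copy of Hsp90b1, 212 to 194 bases upstream. The 9 genes with the element had a median log2 fold change of -1.99 from resident to migratory WT DC1, with all 9 called lower, and of -1.59 without Batf3, with 7 lower (not Derl3 and Dnajc3). The 18 members read in lymph node with a promoter in the table but without the element had medians of -0.71 and -0.37, with 11 and 9 lower and 1 and 3 higher. With the array SD as a term 3 of the 9 were called lower in WT, Pdia6, Creld2 and Hsp90b1, with a median of -0.96, against 5 of the 18 and a median of -0.44. The 5 members whose promoter was not analysed here had 5 and 4 lower. Sdf2l1, Pdia4, Pdia5, P4hb and Xbp1 fell with no copy of those letters in the window, so the element was not shared by all members that fell. The core of the UPR element, TGACGTGG, was in none of the 28 windows (0.676% of all promoters). The AP-1 site TGANTCA, whose kind BATF factors can bind with JUN partners, was in 5 of the 28 (Ddit3, Eif2ak3, Hspa5, Sec61b and Sel1l) and in 7.81% of all promoters, and it was not in the window of Pdia5. A match of letters is no evidence of binding.

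The spread of values on an array moved with the migratory falls. The SD of log2 values over all genes was 1.99 to 2.02 on the resident WT arrays, 1.92 to 2.02 on the resident Batf3-/- arrays, 1.69 and 1.77 on the migratory WT arrays, and 1.81 to 1.95 on the migratory Batf3-/- arrays. With that SD as a term in the fit, the 9 members still in migratory WT DC1 were Pdia3, Pdia4, Pdia5, Pdia6, Hsp90b1, Sdf2l1, Creld2, Atf6 and Xbp1. There Pdia6 was at -2.38, Pdia4 at -2.13, Pdia5 at -2.10, Sdf2l1 at -2.07, Creld2 at -2.06 and Xbp1 at -1.47, while Ddit3 at 1.10 no longer passed, Herpud1, Derl1 and Sec61a1 turned positive at 0.86, 0.047 and 0.28, and Sel1l was called higher. Over all genes 7.01% were then called lower and 7.46% higher. In Batf3-/- cells, where the resident and migratory spreads overlap, 20 members were lower and 4 higher with the term, Hspa5 at -1.23 among the lower ones, where 19.8% of all genes were lower and 16.8% higher.

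Normalizing the quantiles of the arrays again evened the calls over all genes to 23.5% lower and 23.1% higher in WT and moved the median of all genes by 0.19. It left 21 members lower in WT and 18 without Batf3: Dnajb11, Edem1, Derl1 and Ssr1 were lost in WT, Derl1 and Ssr1 without Batf3 (18.8% of all genes lower, 17.1% higher), and Atf4 at 0.43 and Sel1l at 0.85 were called higher in WT. Dnajb9 at 0.69 was newly called higher without Batf3.

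**Figure D4:**
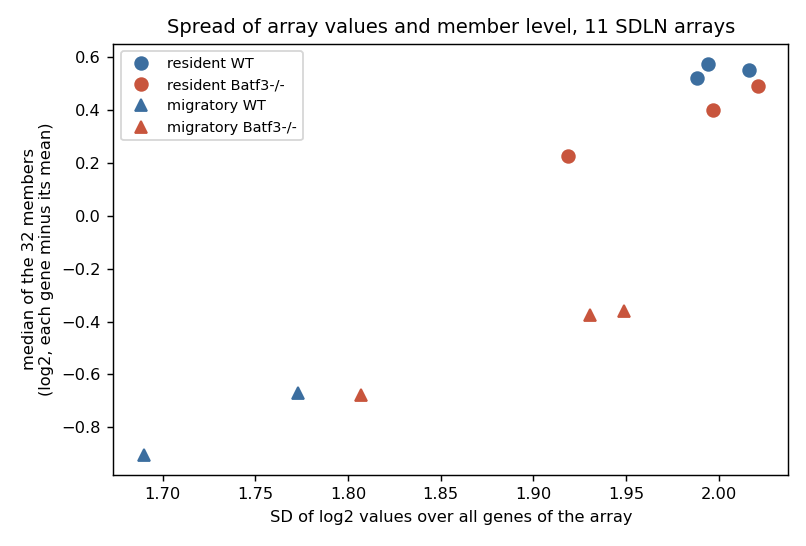
The 11 lymph node arrays by the SD of their log2 values over all genes (x axis) and the median of the 32 members after subtraction of each gene's mean over the arrays (y axis, log2); circles are resident and triangles migratory, blue WT and red Batf3-/-. All migratory arrays lie between -0.91 and -0.36 and all resident ones between 0.22 and 0.58, and the 2 migratory WT arrays have the smallest SD.

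Markers of other cells moved with the sort as well. All 6 B cell markers tested were higher in migratory WT DC1 and 2 of 6 in migratory Batf3-/- DC1, with summed levels of 8.76 to 9.10 against 7.13 to 7.59 in WT and of 7.60 to 8.67 against 7.29 to 7.69 without Batf3. Plasma cells carry a large ER; 3 of their 5 markers tested were higher in migratory WT DC1 and 1 of 5 without Batf3, with summed levels of 7.77 to 9.30 against 7.06 to 7.32 and of 7.70 to 9.20 against 7.19 to 7.42. Of 7 T cell markers 3 were higher in migratory WT and 0 in migratory Batf3-/- DC1. Of 3 macrophage and monocyte markers 1 and 3 were higher. Of 8 markers of type 2 conventional dendritic cells 5 were lower in each genotype, with 0 and 1 higher. Of 7 plasmacytoid dendritic cell markers 2 were higher and 1 lower in each genotype. Of 12 genes of tissue dissociation stress 10 were lower in migratory WT and 7 in migratory Batf3-/- DC1. Over all genes 16% were higher and 33.2% lower in WT, and 14.1% and 22.6% without Batf3. Their part in the members' differences was not tested.

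Among migratory DC1, 3 members were higher without Batf3: Edem1 by 1.31 ± 0.17, Pdia6 by 1.23 ± 0.29 and Sdf2l1 by 0.94 ± 0.26 (limma adjusted p = 0.00267, 0.0251 and 0.0397). That is 9.38% of the members, where over all genes 7.13% were called higher, 2.28% lower and 9.41% in all. The arrays did not overlap for these 3, whose values are given above: Pdia6 lay at 5.06 and 5.54 in WT and between 6.13 and 6.79 in Batf3-/- cells. Of all 32 members, 12 lay wholly lower and 4 wholly higher on the WT arrays, and 16 overlapped. The share over all genes was not counted, so these counts show nothing particular to the members. The 3 were called on these same arrays, so their separation is no separate evidence. The members' median was 0.39, against 0.10 over all genes. The count rested on single arrays. It was 14, of which 12 were higher and 2 lower, without migratory Batf3-/- replicate 3. Over all genes that fit called 2601 of 11931 higher and 969 lower, against 851 and 272 in the main fit. Without migratory WT replicate 2, which leaves 1 array in that group, the count moved as well. Edem1 was the 1 call without migratory WT replicate 1 or without Batf3-/- replicate 1 or 2. With the array SD as a term, or in a fit of the 2 migratory groups alone, it was 0, and Sdf2l1 was also lost after quantile normalization. Other markers moved between these groups: of 12 genes of tissue dissociation stress 3 were higher without Batf3 (median 0.71, summed levels of 13.12 to 14.05 against 12.65 to 12.98), as were 2 of 3 macrophage and monocyte markers tested (8.75 to 8.97 against 8.45 to 8.49), while all 6 B cell markers had a negative difference and 1 was called. Their part in the members' differences was not tested.

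Whether the Batf3 effect differed between migratory and resident DC1 was tested by the interaction. Edem1 was the 1 member that passed, at 1.27 ± 0.23 (limma adjusted p = 0.0304), where 1.24% of all genes passed, 0.721% positive and 0.52% negative. Pdia6 at 1.55 ± 0.39, Sdf2l1 at 1.23 ± 0.34 and Pdia5 at 0.93 ± 0.27 did not pass (limma adjusted p = 0.0723, 0.0957 and 0.104). With the replicate number as a block Pdia6 at 1.66 and Sdf2l1 at 1.25 passed as well (limma adjusted p = 0.0294 and 0.0418). The difference was positive for 28 of 32 members, with a median of 0.64, and for 7352 of 11931 genes, with a median of 0.12. The Edem1 call was lost with the array SD as a term, after quantile normalization, and without any 1 of 8 arrays: all 3 resident Batf3-/- arrays, resident WT replicates 2 and 3, migratory WT replicate 1 and migratory Batf3-/- replicates 1 and 2. Without migratory Batf3-/- replicate 3, whose SD of 1.81 is the smallest of its group, 12 members passed, where 1713 of 11931 genes passed.

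The rest of the pathway was mixed from resident to migratory cells, read here against the shares of all genes called lower, 33.2% in WT and 22.6% without Batf3, and higher, 16% and 14.1%. Of 28 other ER folding genes tested, 17 were lower (60.7%) and 3 higher in WT migratory DC1, with Tor1a, an ER lumen ATPase, at -2.19 ± 0.21 and Fkbp2, a prolyl isomerase, at -2.03 ± 0.25. Without Batf3 12 were lower (42.9%) and 5 higher, among them Fkbp2 at -1.78 ± 0.22 and Dnajc1, a J-domain protein of the ER membrane, at 1.42 ± 0.16. Of 29 other genes of the translocon, signal peptidase and oligosaccharyltransferase 19 were lower (65.5%) and 1 higher in WT and 18 (62.1%) and 1 without Batf3, with Rpn1, a subunit of the oligosaccharyltransferase, at -2.33 ± 0.22 and -2.31 ± 0.20. Tram2, a translocon-associated membrane protein, fell by 2.22 ± 0.18 in WT. Of 31 other ERAD genes 9 were lower (29%) and 2 higher in WT, and 6 (19.4%) and 4 without Batf3, shares no larger than those of all genes, with Selenos, which tethers the extraction ATPase to the ER, at -1.95 ± 0.21 and -1.08 ± 0.18.

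Of 17 other UPR regulators 9 were lower (52.9%) and 2 higher in WT and 7 (41.2%) and 1 without Batf3; Rtcb, the ligase that joins the pieces of Xbp1 mRNA after IRE1 cuts it, was at -2.94 ± 0.47 and -1.50 ± 0.42. Genes known as ATF4 targets were not all of 1 direction: of 16 tested, 3 were higher (18.8%) and 4 lower (25%) in each genotype, with Nupr1, a stress-induced nuclear protein, at 1.85 ± 0.18 and 2.37 ± 0.16 and Shmt2, a mitochondrial serine enzyme, at -2.38 ± 0.25 and -1.67 ± 0.23. Of 8 mRNAs known to be cut by IRE1 2 were higher and 2 lower (25% each) in each genotype, the largest being Itgb2, an integrin chain, at -3.65 ± 0.24 and -3.11 ± 0.21. Of 15 cytosolic heat shock genes, whose products fold proteins outside the ER, 10 were lower (66.7%) and 1 higher in each genotype.

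Without Batf3, calls in these lists were few. In spleen limma called none of the genes of these 7 lists under either comparison. At an unadjusted limma p under 0.05 stood 6 of 25 other ER folding genes without Batf3, and at most 3 genes of any other list. Over all genes 1343 of 12875 had such a p there. With the reporter a list held at most 2, where 1018 of 12875 genes had such a p. In resident DC1 Tram2 alone was called, at -1.10 ± 0.16. In migratory DC1 5 of 28 other ER folding genes (17.9%, against 7.13% of all genes) were higher, with Ero1b, an oxidase that recharges the isomerases, at 1.33 ± 0.29 and Txndc5, a thioredoxin-domain isomerase, at 1.13 ± 0.17, as were the ATF4-linked genes Atf3 at 1.34 ± 0.26 and Nupr1 at 0.79 ± 0.18 and the IRE1 substrate Scara3 at 1.15 ± 0.30. Atf3 is also 1 of the 3 genes of tissue dissociation stress called higher in this comparison. Calls over all genes in this comparison went from 851 higher to 21 with the array SD as a term and to 2 in a fit of the migratory groups alone. By the interaction Tor1a, Txndc5 and Tram2 passed among the named lists' largest, at 1.37 ± 0.29, 1.13 ± 0.23 and 1.12 ± 0.24.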

How the data were processed

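DC1 RNA from spleen (8 arrays) and SDLN (11 arrays) was read on 2 types of Affymetrix array, each with its own series table, and comparisons were made only within a table. The submitters' processing notes name RMA, a method that corrects background, normalizes quantiles and summarises probes, without a version. The authors deposited the spleen table as linear intensity values, between 1.85 and 13035.5, which were put on the log2 scale here. The authors deposited the SDLN table as log2 values, between 1.35 and 13.96. No background per probe is given, and precision is limited by the number of arrays.

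Of 41345 spleen and 35556 SDLN probe sets, 23521 and 21789 had 1 symbol, 1814 and 1621 had several and were left out, and 16010 and 12146 had none; symbols were updated through RefSeq gene identifiers, which matched for 23328 and 21698. A gene was read from its brightest probe set, and genes were kept with the table's median reached on 2 or more arrays. Comparisons were fitted with R 4.3.3 and limma 3.58.1 (functions lmFit, contrasts.fit and eBayes with a trend) over all arrays of a table, with the sort gate as a term in spleen, and Benjamini-Hochberg adjustment over all genes tested; a gene was called at an adjusted p under 0.05. The fit was tested on simulated data with 200 changed genes.

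The members, their roles, the other lists and the tests were chosen with earlier results of these data known. Each member is named; values on every array are given for Pdia5, Hspa5, Xbp1, Ern1, Atf4 and Ddit3, for called members and, where over 12 were called, for the 12 largest changes. Of other genes, at most 2 called per list and comparison are named, beside the checks of the labels. Lists were described by counts and medians, with no set test.

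Replicate numbers were checked for pairing through deviations from group means over all genes. Resident and migratory Batf3-/- arrays with 1 number in common correlated at 0.416, 0.210 and 0.479, so the numbers may pair these arrays. Arrays 1 and 2 of differing number reached 0.184 and 0.218, and the labels do not say what the shared title code is. The main fits therefore held no block and do not use any such pairing. The other groups showed no pairing in all numbers. The block, filters, normalizations, array weights, the array SD as a term and left-out arrays were alternatives. Protein sequences were not used here.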

Additional observations from a re-analysis of the deposited data

Results flagged for a closer look

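Edem1, which hands misfolded glycoproteins to ERAD, was marked because its Batf3 effect differed between migratory and resident lymph node DC1: Batf3-/- minus WT was 1.31 ± 0.17 in migratory and 0.05 ± 0.15 in resident cells, and the difference between them was 1.27 ± 0.23 on the log2 scale (limma interaction, adjusted p = 0.0304). It was positive in all 19 alternatives, from 0.90 to 1.40, and passed the test in 9 of them, with adjusted p-values from 0.0061 to 0.145. Between arrays that share a title code the migratory difference was 1.57 and 1.19. Edem1 was marked on these same arrays, so those values are no separate evidence. No other member passed that test, and no member of a group of at least 4 arrays could be checked for an array far from the rest, since groups held 2 or 3 arrays.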

How the results depend on the processing

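Pdia5 was called lower without Batf3 in all 16 spleen and all 15 resident alternatives, with values from -2.10 to -1.87 and from -1.56 to -1.33. Member counts that moved were these. In resident DC1 without Batf3, 3 members passed with array weights. In migratory DC1 without Batf3, 5 passed with no filter and 5 with the stricter one, 10 with array weights, 8 with the replicate block, 0 with the array SD as a term and 0 in a fit of those groups alone, and between 1 and 14 with 1 array left out. From resident to migratory WT DC1 the array SD left 10 calls, and turned Herpud1 to 0.86, Derl1 to 0.047 and Sec61a1 to 0.28; left-out arrays gave 24 to 26, and 20 to 24 without Batf3, where the block gave 24 and changed no call but that of Dnajb9. The interaction gave 8 members with array weights, 3 with the block, 0 after quantile normalization, 0 with the array SD, and 0 to 12 with 1 array left out. The blocked fit changed no other call of a member in spleen, in resident cells or in WT migratory against resident cells.

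Counts over all genes moved more. Spleen Batf3-/- against WT went from 95 to 262 with array weights, 25 on arrays sorted on CD24 and XCR1, 46 in a fit of those groups alone and 24 to 149 with 1 array left out. The reporter went from 3 to 1 with no filter, 1 with median centring, 18 with weights, 0 with the replicate block, 0 with those groups alone and 0 to 15 with 1 array left out. Resident DC1 without Batf3 went from 220 to 981 with weights, 453 with the array SD, 342 with those groups alone and 95 to 177 with 1 array left out. Migratory DC1 without Batf3 went from 1123 to 2104 with no filter, 2294 with weights, 2464 with the block, 65 with the array SD, 7 with those groups alone and 109 to 3570 with 1 array left out; quantile normalization split it into 659 higher and 525 lower, against 851 and 272. WT migratory against resident went from 5870 to 8873 with no filter and 1726 with the array SD, and 2755 higher and 2803 lower after quantile normalization, against 1903 and 3967. The interaction went from 148 to 297 with no filter, 79 with the stricter filter, 1110 with weights, 543 with the block, 28 with the array SD and 17 to 1713 with 1 array left out. The causes of these shifts were not tested. Groups of 2 or 3 arrays and the missing background per probe limit what dim members such as Derl3 can show.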
